A study of Drosophila melanogaster with 29 samples.

Results

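The arrays compared here came from Drosophila S2 cells depleted of dKDM2 and from S2 cells depleted of dRING, 3 arrays each, chosen by their labels from a series of 29. S2 cells are a line with features of embryonic blood cells. Depletion was by RNA interference: the cells took up double-stranded RNA (dsRNA) over 4 days, against dKDM2 in one group and against dRING in the other. The same series holds 3 arrays each of cells depleted of PC, PH or PSC, and 14 arrays of Mock cells, which are untreated, so that exposure to dsRNA as such separates every depletion from Mock. Arrays of a group are labelled as biological replicates, but no separate cultures are named. The p-values therefore measure the spread between arrays of a group, which may be technical. For the gene tests that spread was pooled over all groups of the series, and 14 of the 29 arrays are Mock. Values are log2 signals, and every difference is dKDM2 minus dRING unless another pair is named. The lowest value, the floor, was 2.27 on every array. All 13647 non-control probe sets that name 1 gene entered, 1 was kept per gene, and 11677 genes above the floor on at least 1 array were tested. Genes with an adjusted p under 0.05 are termed called, the test being limma (a linear model fitted over all arrays, with Benjamini-Hochberg adjustment over all genes tested). SE is the standard error of a difference, and SD is taken over the arrays of a group.

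dRING, encoded by Sce, is the RING-finger protein that places ubiquitin on histone H2A, and it is a subunit of Polycomb repressive complex PRC1, together with PC, PH and PSC. PRC1 helps keep developmental regulators silent. dKDM2 is a histone demethylase, and biochemical work placed it with dRING and PSC in a complex that lacks PC and PH, named dRAF. The 2 depletions thus remove different members of one complex, while dRING is also lost from PRC1.

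The arrays of the 2 depletions differed in their laboratory controls. The poly-A spikes, foreign transcripts added to the RNA before labelling, read 9.18, 8.48 and 7.15 on the dKDM2 arrays, against 4.09, 4.17 and 5.18 on the dRING arrays. The hybridization controls, added after labelling, read 12.81, 12.28 and 11.45 on the dKDM2 arrays, against 9.44, 9.84 and 11.40 on the dRING arrays. Neither control overlapped between the groups, and a two-sided exact permutation test of 3 against 3 gave p = 0.10 for each, the smallest it allows. The PH arrays also stood high, at 9.37 for the spikes and 12.68 for the hybridization controls, while the Mock arrays ranged from 2.96 to 7.12 and from 9.54 to 11.66. The upper quartile of the gene signals was lower without overlap on the dKDM2 arrays, at 5.77, 5.89 and 6.59, than on the dRING arrays, at 7.02, 7.02 and 6.67. The difference between 5′ and 3′ probe sets of the actin control, a sign of RNA integrity, was -2.10, -2.44 and -2.43 on the dKDM2 arrays, against -1.16, -1.23 and -4.18 on the dRING arrays. For the GAPDH control it was -2.75, -2.54 and -3.06 on the dKDM2 arrays, against -1.62, -1.56 and -3.54 on the dRING arrays. The last dRING array, replicate 3, thus stood apart from the others of its group in both. It also differed from them in Sce, cad, gsb and Rpn7, where its part was not tested beyond the fits without it. Replicate 3 was also low for actin in PC (-4.20), PSC (-4.67) and Mock (-4.67), against -1.80 to -1.42 on replicates 1 and 2 of these groups. In PH it read -3.94, against -2.43 and -2.85, while dKDM2 replicate 3 did not stand apart. The source of this shared pattern was not tested. A two-sided exact permutation test of 3 against 3 gave p = 1.00 for the actin and p = 0.40 for the GAPDH difference. Laboratory handling and the depleted protein cannot be told apart in this comparison, and dKDM2 is therefore also set against PH beside the results. The second and the third dKDM2 array were below every PH array in both the spikes and the hybridization controls. Between arrays, the correlation over genes was 0.978 to 0.986 within the dKDM2 group and 0.949 to 0.975 across the groups. Within the dRING group it was 0.999 between the first and the second array, and 0.980 and 0.982 between these and the third. A fit without the first or the second dRING array thus keeps a very similar array in the group.

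**Figure D1:**
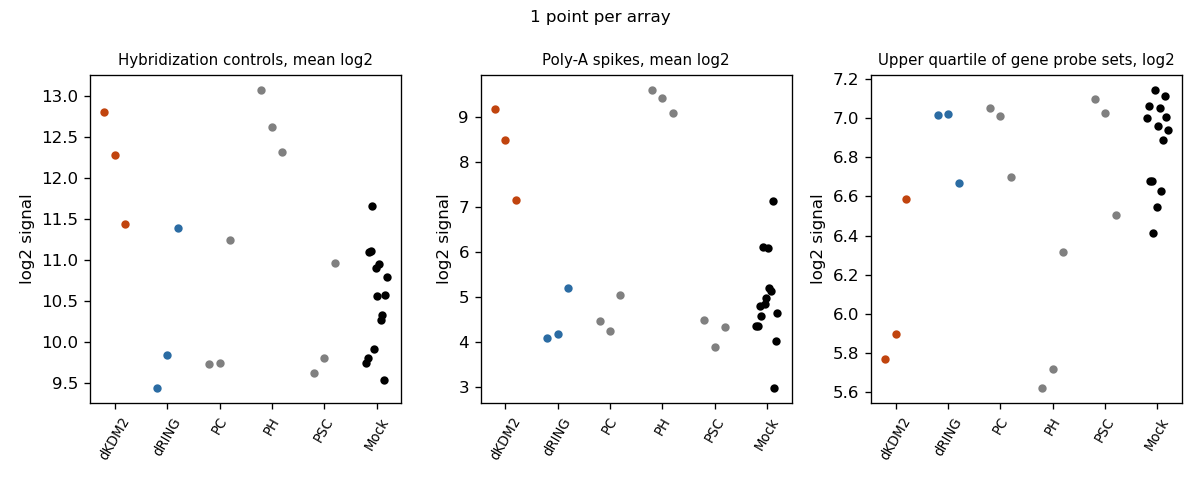
Mean log2 signal of the hybridization controls (left) and poly-A spikes (middle) and the upper quartile of the gene probe sets (right), with 1 point per array in each of the 6 groups. On the dKDM2 arrays both controls lie above all 3 dRING arrays, the closest pair being 11.45 on a dKDM2 array and 11.40 on a dRING array, and the PH arrays lie as high as the dKDM2 arrays.

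Transcript levels differed widely between cells depleted of dKDM2 and cells depleted of dRING. Of 11677 genes, 1602 (13.7%) were called between them, 790 (6.77%) higher and 812 (6.95%) lower on the dKDM2 arrays. Of these, 375 differed by more than 4-fold, 126 of them higher and 249 lower. Against Mock, 3872 genes (33.2%) were called after depletion of dKDM2 and 324 (2.77%) after depletion of dRING, with the Mock arrays shared by both comparisons. Between dKDM2 and PH, 289 genes (2.47%) were called. Among the 7323 genes above the floor on all 6 arrays, the 95% interval of the difference lay within 2-fold either way for 2102 (28.7%). For 105 called genes, both depletion means lay inside the range of the Mock arrays.

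The balance of higher and lower calls depended on the scaling. It was 790 to 812 after quantile normalization, 568 to 1346 on the deposited scale and 440 to 3530 with array medians made equal. Equal array medians also shifted the floor, and the median difference over all genes tested was then -0.09. Median centring used the median of the probe sets above the floor on every array. It moved the floor further, to a median difference of 0.80 over all genes tested. It gave 7018 to 795, or 2555 to 699 over genes above the floor. Over genes above the floor, the median difference was -0.02 after quantile normalization, -0.21 on the deposited scale and 0.59 with median centring. The count of higher genes was 1204 without the third dKDM2 array, 521 without the first dRING array and 479 without the second dRING array. The count of lower genes was 505 without the first dKDM2 array and 488 without the second.

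**Figure D2:**
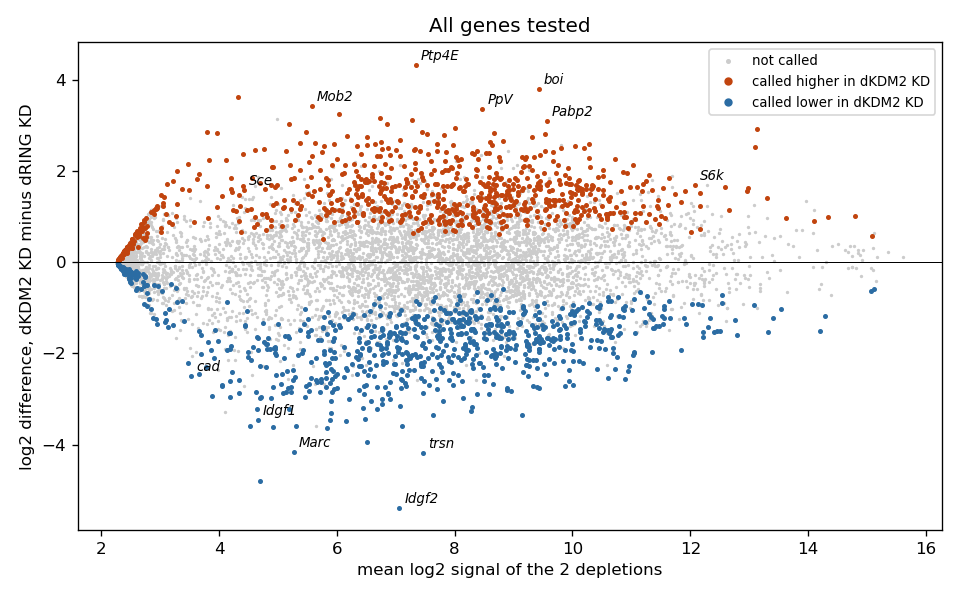
Difference between the dKDM2 and dRING depletions (vertical axis, log2) against the mean of both (horizontal axis, log2 signal), with 1 point per gene and called genes in colour. The 790 genes called higher and the 812 called lower spread over the whole range of signal, with Ptp4E at the top and Idgf2 at the bottom.

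The genes of the depleted proteins were examined first. The signal of Sce, which encodes dRING, was 4.58, 4.17 and 6.92 on the dKDM2 arrays, against 4.12, 4.15 and 2.62 on the dRING arrays, with a Mock mean of 8.04 ± 0.47 (SD, n = 14 arrays). Sce was thus below every Mock array in both depletions. Its difference of 1.59 (SE 0.51, adjusted p = 0.0372 by limma) rested on the third arrays. It was 0.74 without the third dKDM2 array and 1.09 without the third dRING array, not called in either case, and it was 1.15 and not called on the deposited scale. Against Mock, Sce fell by 2.81 after depletion of dKDM2 (adjusted p = 4.93e-06) and by 4.41 after depletion of dRING (adjusted p = 1.24e-07), by limma. Its mean after depletion of PH was 5.38, and its means after depletion of PC and PSC were 7.98 and 8.31. No probe set naming Kdm2 alone was used, so the depletion of dKDM2 itself was not analysed here.

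The transcript of Psc, the PRC1 and dRAF subunit, stood at 10.32, 10.22 and 10.17 on the dKDM2 arrays, against 9.54, 9.21 and 9.20 on the dRING arrays. Both groups lay above the Mock mean of 6.77 ± 0.62 (SD, n = 14 arrays). Psc rose against Mock by 3.47 after depletion of dKDM2 (adjusted p = 8.69e-09) and by 2.54 after depletion of dRING (adjusted p = 1.67e-05), by limma. The difference between the depletions was 0.92 (95% interval 0.11 to 1.74) and was not called (adjusted p = 0.128 by limma), although the arrays did not overlap. Psc was called with median centring (1.32), on the 6 arrays without a block (0.92) and on 18 arrays with or without a block (0.92). For Pc, the chromodomain subunit, the difference was 0.46 (95% interval -0.64 to 1.55), also not called. Scm, a Polycomb protein that associates with PRC1, missed the threshold at a difference of 0.75 (95% interval 0.22 to 1.27, adjusted p = 0.0505 by limma). Without the third dKDM2 array (0.86) or the third dRING array (0.95) Scm was called.

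The largest difference of all was that of Idgf2, a secreted chitinase-like growth factor of the imaginal disc growth factor family. Idgf2 read 5.31, 3.20 and 4.58 on the dKDM2 arrays, against 9.89, 10.05 and 9.34 on the dRING arrays. No dKDM2 array came near the dRING arrays, and Idgf2 was 42.0-fold lower after depletion of dKDM2 (difference -5.39, SE 0.63, adjusted p = 3.39e-06 by limma). Its mean was 9.87 after depletion of PC, 3.18 after PH, 5.92 after PSC and 5.56 in Mock. Idgf2 rose by 4.20 against Mock after depletion of dRING (adjusted p = 1.04e-05 by limma), while the value for dKDM2 was -1.20 and was not called (adjusted p = 0.0634 by limma).

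Idgf1, of the same family, read 2.89, 2.62 and 3.27 on the dKDM2 arrays, against 5.93, 6.06 and 7.17 on the dRING arrays. The dKDM2 arrays were close to the Mock mean of 3.09 ± 0.17 (SD, n = 14 arrays), whereas every dRING array was far above it. The difference was -3.46 (SE 0.24, adjusted p = 1.57e-09 by limma), or 11.0-fold. This SE pools in the Mock arrays, which varied less than the dRING arrays. Idgf1 averaged 9.71 after depletion of PC, 2.61 after PH and 3.04 after PSC. Idgf3 differed by -1.65 (95% interval -2.83 to -0.47, adjusted p = 0.0554 by limma) and Idgf6 by 0.30, neither of them called. Idgf3 was called lower on the deposited scale (-2.03), with the mean over probe sets (-1.85), with a filter on dim genes (-1.65) and under other alternatives. Of the 6 family members, Idgf1 and Idgf2 were thus the 2 called in the comparison as reported, beside 6.77% higher and 6.95% lower over all genes. Among the 6, 1 member was at the floor on all 6 arrays.

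cad (caudal), the homeobox gene of posterior identity, lay at the bottom of the scale on the dKDM2 arrays, with 2.27 on all 3, against 5.20, 5.69 and 3.44 on the dRING arrays. The third dRING array was the lowest of its group and still stood above every dKDM2 array. The difference was -2.50 (SE 0.37, adjusted p = 6.67e-05 by limma), and its size is understated, since signals could not go below 2.27. Its SE and p-value pool in arrays at or near the floor, where values hardly vary. They may therefore understate the spread of the dRING arrays. cad averaged 6.03 after depletion of PC, 5.42 after PH, 2.29 after PSC and 2.29 in Mock. It was also lower after depletion of dKDM2 than after depletion of PH, by 3.15 (difference -3.15, adjusted p = 9.7e-06 by limma). In a fit on the 6 dKDM2 and dRING arrays alone, without a block, cad was not called.

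gsb (gooseberry), a segment polarity gene with a paired domain, read 3.12, 3.36 and 3.17 on the dKDM2 arrays, against 7.27, 7.10 and 3.80 on the dRING arrays. The groups did not overlap, but the third dRING array was within 1 log2 unit of the dKDM2 arrays. Its difference of -2.84 (SE 0.85, adjusted p = 0.0265 by limma) was -2.80 without the first dKDM2 array, -2.91 without the second, -2.24 without the first dRING array and -2.32 without the second, and it was not called in any of these. It was -0.51 and not called with the laboratory controls as covariates. Of 101 measured regulators of development known from other work as Polycomb targets, 1 was called higher and 3 lower on the dKDM2 arrays, beside 6.77% higher and 6.95% lower over all genes. gsb and cad were among the 3. Only 26 of the 101 were above the floor on all 6 arrays, 1 of them higher and 2 lower, and the rest were at the floor on at least 1 array. With single arrays left out, the counts ranged from 0 to 8 higher (0 without the first or the second dRING array, 3, 4 and 8 without the first, the second and the third dKDM2 array) and from 1 to 6 lower (1 without the first or second dKDM2 array, 6 without the first or second dRING array).

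**Figure D3:**
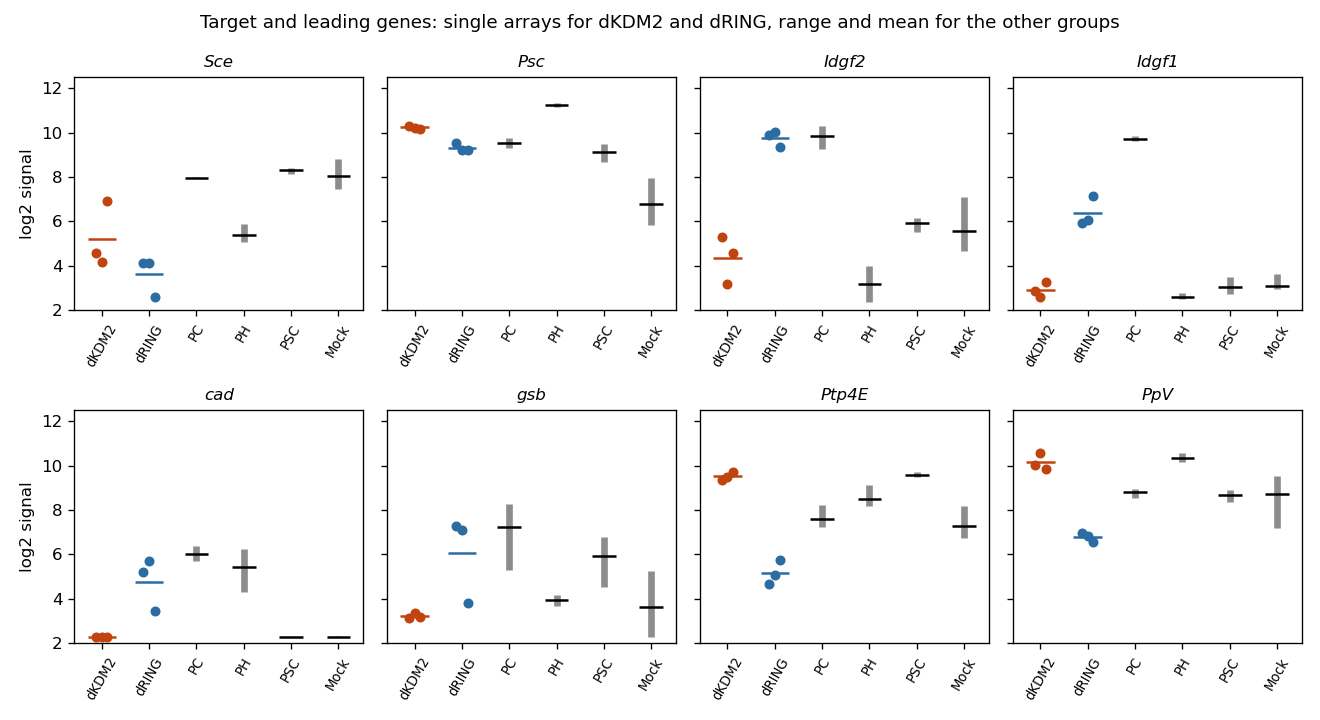
Log2 signals of 8 genes, with 1 point per dKDM2 or dRING array and a line at the mean, and with the range (grey bar) and mean (line) of the PC, PH, PSC and Mock arrays. Idgf1, Idgf2, cad and gsb lie low on the dKDM2 arrays and high on the dRING arrays, Ptp4E and PpV lie the other way round, and Sce lies below Mock in both depletions.

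Among the other genes with large negative differences, trsn, Marc and Dlip2 fell against Mock after depletion of dKDM2 and were not called after depletion of dRING. trsn, which encodes translin, a protein of the RNA interference machinery in flies, read 3.18, 5.77 and 7.19 on the dKDM2 arrays, against 9.40, 9.46 and 9.83 on the dRING arrays. The dKDM2 arrays were scattered, and the difference was -4.18 (SE 0.54, adjusted p = 1.1e-05 by limma). Against Mock, trsn fell by 4.74 after depletion of dKDM2 (adjusted p = 8.39e-09 by limma), and the value for dRING was -0.56, not called. Marc read 2.64, 2.34 and 4.59 on the dKDM2 arrays, against 7.05, 7.27 and 7.72 on the dRING arrays (difference -4.15, SE 0.44, adjusted p = 9.33e-07 by limma). Dlip2 read 2.73, 3.34 and 3.27 on the dKDM2 arrays, against 6.64, 6.66 and 6.90 on the dRING arrays (difference -3.62, SE 0.30, adjusted p = 2.48e-08 by limma). The genes with the largest differences each way were taken from called genes whose groups did not overlap. Their lack of overlap was thus set by that choice. For Marc and Dlip2, the gap between the groups was more than 2 log2 units. After depletion of PH their means were 2.62 and 3.57, and neither differed by a call from dKDM2.

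SamDC, the decarboxylase that feeds polyamine synthesis, read 5.17, 5.47 and 5.29 on the dKDM2 arrays, against 8.35, 8.69 and 9.66 on the dRING arrays (difference -3.59, SE 0.70, adjusted p = 0.00102 by limma). M1BP, a transcription factor that binds a core promoter motif of housekeeping genes, read 3.38, 4.21 and 5.64 on the dKDM2 arrays, against 8.48, 8.48 and 6.73 on the dRING arrays (difference -3.48, adjusted p = 0.0019 by limma). With the laboratory controls as covariates M1BP turned to 0.07 and lost its call. GstE2, a glutathione S-transferase, read 3.15, 3.24 and 4.14 on the dKDM2 arrays, against 7.25, 7.55 and 6.48 on the dRING arrays (difference -3.59, adjusted p = 0.0143 by limma). Its call ended without the first dKDM2 array (-3.41) and without the second dRING array (-3.36). GstE2 was also lower after depletion of dKDM2 than after depletion of PH, with a difference of -4.29 (adjusted p = 0.0152 by limma), and its Mock arrays ranged from 3.01 to 7.92.

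bgcn, which is required for differentiation in the germ line, differed by -3.60 (adjusted p = 0.013 by limma), with dKDM2 arrays from 2.55 to 2.84 and dRING arrays from 6.08 to 6.77. Its Mock arrays ranged from 2.58 to 7.07 and so spanned both depletions. CG40160 showed the same pattern more strongly, with means of 2.30 on the dKDM2 arrays and 7.09 on the dRING arrays and Mock arrays from 2.35 to 8.13. CG40160 differed by -4.79 (SE 1.45, adjusted p = 0.0274 by limma) and was not called when any 1 of the 6 arrays except the third dKDM2 array was left out, with values from -4.92 to -4.67. With the laboratory controls as covariates, GstE2 (-3.68), bgcn (-3.06) and CG40160 (-3.44) were not called. CG7655 read 3.83, 3.97 and 5.81 on the dKDM2 arrays, against 8.57, 8.61 and 8.30 on the dRING arrays (difference -3.96, adjusted p = 8.51e-05 by limma).

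Among genes higher after depletion of dKDM2, Ptp4E, a receptor tyrosine phosphatase on the X chromosome, had the largest difference. Ptp4E read 9.35, 9.49 and 9.70 on the dKDM2 arrays, against 4.65, 5.08 and 5.77 on the dRING arrays. The groups were far apart, with the Mock mean of 7.27 ± 0.35 (SD, n = 14 arrays) between them, and the difference was 4.35 (SE 0.32, 20.4-fold, adjusted p = 2.59e-09 by limma). Ptp4E rose by 2.25 against Mock after depletion of dKDM2 (adjusted p = 1.67e-07 by limma) and fell by 2.10 after depletion of dRING (adjusted p = 1.04e-05 by limma). Its mean was 7.59 after depletion of PC, 8.51 after PH and 9.58 after PSC, and of the 5 depletion means the dRING mean alone was below the Mock mean.

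boi, a transmembrane co-receptor of the Hedgehog pathway, read 11.27, 11.57 and 11.15 on the dKDM2 arrays, against 6.98, 7.02 and 8.56 on the dRING arrays (difference 3.81, SE 0.70, adjusted p = 0.000643 by limma). Mob2, a partner of NDR-family kinases, read 7.23, 7.89 and 6.75 on the dKDM2 arrays, against 3.81, 3.53 and 4.24 on the dRING arrays (difference 3.43, SE 0.41, adjusted p = 5.11e-06 by limma). For Mob2 the dRING arrays lay near the Mock mean of 3.98. For boi the first and the second dRING array lay below the Mock mean of 8.27 and the third above it. The dKDM2 arrays lay above the Mock mean for both genes. Pabp2, the nuclear poly(A)-binding protein, read 11.13, 11.33 and 10.87 on the dKDM2 arrays, against 7.75, 7.61 and 8.67 on the dRING arrays (difference 3.10, SE 0.47, adjusted p = 8.36e-05 by limma). Pabp2 has several probe sets, and with their mean in place of the brightest its difference was 0.83 and not called. Mdr49, an ABC transporter, read 8.24, 8.11 and 6.66 on the dKDM2 arrays, against 4.03, 4.06 and 5.18 on the dRING arrays (difference 3.25, adjusted p = 0.00906 by limma). With the laboratory controls as covariates, Mdr49 was at 0.91 and boi at 2.28, and neither was called.

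Of the remaining large positive differences, unc-13, which primes synaptic vesicles in neurons, differed by 3.16 (adjusted p = 0.0031 by limma), with 7.88, 8.49 and 8.56 on the dKDM2 arrays and 5.44, 4.94 and 5.06 on the dRING arrays. scaf6 differed by 3.14, CG8301 by 3.05 and CG32813 by 3.05. With the laboratory controls as covariates, unc-13 (3.09), scaf6 (0.54), CG8301 (1.48) and CG32813 (1.55) were not called. After depletion of PH these genes were high as well. The PH mean was 10.40 for boi, 8.77 for Mob2, 11.07 for Pabp2, 7.82 for Mdr49 and 8.33 for unc-13, and none of the 5 was called between dKDM2 and PH.

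Against Mock, 5 genes were called in opposite directions by the depletions, which share the Mock arrays. Of these, 3 were higher on the dKDM2 arrays, namely Ptp4E, PpV and plum, and 2 were lower, namely mnd and eas.

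PpV, the catalytic subunit of a protein phosphatase of the PP6 type, read 10.04, 10.59 and 9.83 on the dKDM2 arrays, against 6.96, 6.85 and 6.56 on the dRING arrays (difference 3.36, SE 0.35, adjusted p = 7.27e-07 by limma). Against Mock it rose by 1.43 after depletion of dKDM2 and fell by 1.93 after depletion of dRING. plum, a transmembrane protein of the immunoglobulin superfamily, read 9.63, 9.73 and 9.82 on the dKDM2 arrays, against 7.14, 6.86 and 7.98 on the dRING arrays (difference 2.40, SE 0.40, adjusted p = 0.000215 by limma). plum was also higher after depletion of dKDM2 than after depletion of PH, by 2.09 (adjusted p = 0.00393 by limma). With the laboratory controls as covariates, its difference from dRING was 1.29 and not called. eas, an ethanolamine kinase of phospholipid synthesis, read 8.34, 8.51 and 8.56 on the dKDM2 arrays, against 10.39, 10.41 and 10.34 on the dRING arrays, with a difference of -1.91 (SE 0.19, adjusted p = 6.85e-07 by limma). eas was lower than after depletion of PH too, with a difference of -0.87 (adjusted p = 0.0147 by limma). mnd (minidiscs), an amino acid transporter, read 8.09, 8.54 and 8.30 on the dKDM2 arrays, against 10.41, 10.35 and 10.60 on the dRING arrays, with a difference of -2.14 (SE 0.36, adjusted p = 0.000241 by limma). For eas and mnd, the Mock means of 9.58 and 9.20 lay between the depletions.

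Some genes moved from Mock alike in both depletions. The criterion was a call against Mock in the same direction in both and a 95% interval of the difference between the depletions within 2-fold either way. Orct2, an organic cation transporter, read 12.96, 12.73 and 12.83 on the dKDM2 arrays, against 12.82, 12.89 and 12.67 on the dRING arrays, all above the Mock mean of 11.36 ± 0.63 (SD, n = 14 arrays). The groups overlapped, and the difference was 0.05 (95% interval -0.76 to 0.86). spin (spinster), a lysosomal transporter, read 11.40, 11.43 and 11.14 on the dKDM2 arrays, against 11.68, 11.45 and 10.81 on the dRING arrays (difference 0.01, 95% interval -0.94 to 0.96). Ero1L, the oxidase of disulphide formation in the endoplasmic reticulum, differed by 0.27 (95% interval -0.32 to 0.86), and lola, a BTB zinc-finger transcription factor, by -0.06 (95% interval -0.88 to 0.76). Below Mock in both depletions were GCC88 (difference 0.07, 95% interval -0.80 to 0.94), AIMP1, a scaffold protein of tRNA synthetases (0.12, 95% interval -0.72 to 0.96), and GstZ1, a glutathione S-transferase (0.03, 95% interval -0.75 to 0.82).

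Of 19 measured Polycomb group genes, 8 were called higher and 2 lower on the dKDM2 arrays, with a median difference of 0.75 against 0.00 over all genes tested. The shares over all genes tested were 6.77% higher and 6.95% lower. The 2 lower members were Caf1-55, with the largest difference of the list (-2.22, adjusted p = 0.0113 by limma), and sxc (-1.35, adjusted p = 0.00814 by limma). phol, the DNA-binding paralog of Pho, read 8.93, 9.03 and 8.72 on the dKDM2 arrays, against 7.36, 7.45 and 6.98 on the dRING arrays (difference 1.63, SE 0.31, adjusted p = 0.000929 by limma). Jarid2, an accessory subunit of PRC2, the complex that methylates histone H3, read 10.52, 10.21 and 10.37 on the dKDM2 arrays, against 9.01, 8.74 and 9.20 on the dRING arrays (difference 1.38, SE 0.32, adjusted p = 0.00436 by limma). Neither gene overlapped between the groups, and both kept their calls with each array left out in turn. E(z), the methyltransferase of PRC2, differed by -0.48 (95% interval -1.17 to 0.21), not called. On the deposited scale the list had 1 higher and 4 lower members and a median of 0.24, phol was not called (1.05), and E(z) was called lower (-1.31). The list had 5 higher and 1 lower members with the laboratory controls as covariates. The higher count was 4 and 3 without the first and second dKDM2 array and 5, 4 and 5 without the first, the second and the third dRING array, and the lower count was 1 without the second dKDM2 array or any 1 dRING array.

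Of 21 trithorax group genes, which counteract Polycomb silencing, 7 were called higher and 2 lower, with a median of 0.61. All genes tested had 6.77% higher and 6.95% lower. e(y)3, a coactivator subunit of the PBAP remodelling complex, read 9.35, 9.00 and 9.22 on the dKDM2 arrays, against 6.99, 6.98 and 6.63 on the dRING arrays (difference 2.32, SE 0.50, adjusted p = 0.00276 by limma). trr, a methyltransferase for histone H3, differed by 1.70 (adjusted p = 0.00272 by limma) and skd, a subunit of the Mediator kinase module, by 1.45 (adjusted p = 0.00444 by limma). Trl, the GAGA factor, was lower, at 6.18, 6.44 and 6.15 on the dKDM2 arrays against 7.27, 6.96 and 7.41 on the dRING arrays (difference -0.96, SE 0.21, adjusted p = 0.00331 by limma). brm, the remodelling ATPase, differed by -0.36 and was not called. On the deposited scale 2 were called higher and 4 lower, the median turned to -0.08, and skd was not called (0.88). With the laboratory controls as covariates 4 were higher and 0 lower by limma, the median was 1.36, and e(y)3 (2.13), trr (1.58) and Trl (-0.74) were not called. The higher count was 3 and 4 without the first and second dKDM2 array and 4 without the second dRING array. The lower count was 1 without the first or second dKDM2 array and 4 without the third.

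Many genes of the proteasome, the protease that degrades ubiquitylated proteins, were lower after depletion of dKDM2 than after depletion of dRING. Of 37 measured genes, 19 were called lower and 0 higher by limma, with a median difference of -1.87; at an unadjusted p under 0.05 they numbered 23 and 1. Over all genes tested, 6.95% were lower and 6.77% higher. Of the 37, 4 were at the floor on all 6 arrays. Rpn7, a lid subunit, read 7.01, 7.63 and 7.76 on the dKDM2 arrays, against 11.36, 11.56 and 9.56 on the dRING arrays (difference -3.36, SE 0.79, adjusted p = 0.00553 by limma). Rpt2, an ATPase subunit, read 7.07, 7.76 and 9.33 on the dKDM2 arrays, against 10.70, 10.87 and 10.86 on the dRING arrays (difference -2.76, SE 0.56, adjusted p = 0.00158 by limma). No dKDM2 array reached the level of a dRING array in either gene. The core subunits Prosalpha3 and Prosalpha7, named after their values were seen, differed by -2.70 (adjusted p = 5.8e-05) and -1.87 (adjusted p = 6.18e-05) by limma.

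The list's median was -1.53 for dKDM2 minus Mock, 0.12 for dRING minus Mock and 0.00 for dKDM2 minus PH. With the hybridization and poly-A controls as covariates, 10 members were called lower and the median was -0.06, with Rpn7 at -0.32 and Rpt2 at -0.77. The poly-A spikes stood at 8.27 ± 1.03 on the dKDM2 arrays and 4.48 ± 0.61 on the dRING arrays (SD, n = 3 each), and their part in the result was not tested beyond that fit.

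Of 35 measured genes of DNA replication, 14 were lower and 2 higher, with a median of -1.0. Prim1, a primase subunit, read 3.70, 2.89 and 6.00 on the dKDM2 arrays, against 7.09, 7.36 and 6.14 on the dRING arrays (difference -2.67, SE 0.60, adjusted p = 0.00343 by limma). Fen1, the flap endonuclease, read 5.72, 4.64 and 7.13 on the dKDM2 arrays, against 8.32, 8.61 and 8.53 on the dRING arrays (difference -2.65, SE 0.48, adjusted p = 0.000508 by limma). In both genes the third dKDM2 array was the highest of its group and the nearest to the dRING arrays. Orc4, of the origin recognition complex, differed by -2.55 (adjusted p = 0.00671 by limma), and PCNA, the sliding clamp, named after its values were seen, by -1.88 (adjusted p = 0.00332 by limma). The lower count was 8 without the first dKDM2 array and 8 without the second dRING array, and 5 with the laboratory controls as covariates. In that fit Prim1 (-1.88), Fen1 (-1.95), Orc4 (-2.29) and PCNA (-0.97) lost their calls. The higher count was 0 without the first or second dKDM2 array or the first dRING array, and 1 without any 1 of the others. Of 20 genes of the cell cycle and mitosis, 2 were higher and 3 lower, with a median of 0.04, beside 6.77% higher and 6.95% lower over all genes. E2f2, a repressive E2F factor, was one of the lower ones (difference -1.53, adjusted p = 5.82e-05 by limma), and it was -0.85 and not called with the laboratory controls as covariates.

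Mitochondrial genes were described in a pair of lists, beside 6.77% higher and 6.95% lower over all genes. Of 69 genes of mitochondrial ribosomal proteins, 20 were lower and 0 higher by limma (35 and 1 at an unadjusted p under 0.05), with a median of -0.90. mRpL36 read 6.83, 6.50 and 8.10 on the dKDM2 arrays, against 9.85, 9.98 and 10.24 on the dRING arrays (difference -2.88, SE 0.45, adjusted p = 0.000124 by limma). Of 72 genes of oxidative phosphorylation, 20 were lower and 0 higher by limma (28 and 0 at an unadjusted p under 0.05), with a median of -0.54. ND-20, a subunit of complex I, differed by -1.85 (adjusted p = 0.000318 by limma) and SdhC, a subunit of succinate dehydrogenase, by -1.81 (adjusted p = 0.000422 by limma). The counts of higher and lower genes of oxidative phosphorylation were 1 and 28 on the deposited scale, 21 and 19 with median centring (7 and 16 over genes above the floor), and 0 and 10 with the laboratory controls as covariates, where the median was -0.24. For the mitochondrial ribosomal genes they were 0 and 38 on the deposited scale. In the list of cytosolic ribosomal proteins, 4 of 41 genes were lower, beside 6.95% over all genes, with a median of -0.09. RpS29 was among them (difference -1.50, adjusted p = 4.42e-05 by limma), and the count was 2, 1 and 7 without the first, the second and the third dKDM2 array. The counts of higher and lower genes in that list were 2 and 8 on the deposited scale, 0 and 13 with equal array medians, and 14 and 2 with median centring. The lower count of mitochondrial ribosomal genes was 11, 13 and 13 without the first dKDM2, second dKDM2 and second dRING array, and that of oxidative phosphorylation was 10 and 11 without the first and second dKDM2 array. Against PH, the medians were -0.14 for the mitochondrial ribosomal genes and -0.16 for oxidative phosphorylation.

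Further called members stood in smaller lists of housekeeping genes, beside 6.95% lower over all genes. Of 14 genes of prefoldin and the TCP-1 chaperonin, which fold actin and tubulin, 7 were lower, with Pfdn5 at 9.49, 9.24 and 10.11 on the dKDM2 arrays against 11.47, 11.66 and 11.39 on the dRING arrays (difference -1.89, SE 0.24, adjusted p = 1.08e-05 by limma). That count was 4 without the second dKDM2 or the first dRING array and 2 with the laboratory controls as covariates. Of 30 aminoacyl-tRNA synthetases 6 were lower, AlaRS among them (difference -1.70, adjusted p = 0.00228 by limma), and the count was 4 without the third dRING or without the first dKDM2 array. In the fit with the laboratory controls as covariates, 3 synthetases were higher and 3 lower. Of 23 autophagy genes 5 were lower although the list's median was 0.32. Atg14 and Atg6, both part of the lipid kinase complex that starts autophagosomes, differed by -2.42 (adjusted p = 3.49e-05) and -1.88 (adjusted p = 0.000296) by limma. The autophagy count was 3 without the second dRING array or with the laboratory controls as covariates, and the median was -0.31 on the deposited scale. Of 10 glycolysis genes only Pgk, the phosphoglycerate kinase, was called (difference -2.18, adjusted p = 0.000319 by limma). Of 13 genes of amino acid and polyamine enzymes, 3 were lower and 1 higher. SamDC, described above, and Oat, ornithine aminotransferase (difference -2.26, adjusted p = 0.000353 by limma), were among the lower ones. Oat was -1.72 and not called with the laboratory controls as covariates.

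Lists of signalling and adhesion genes are given with their called members, beside 6.77% higher and 6.95% lower over all genes. Of 19 genes of septate junctions, the barrier junctions of insect epithelia, 4 were higher and 0 lower by limma (7 and 0 at an unadjusted p under 0.05), with a median of 1.02. On the deposited scale the median was 0.22 and 2 genes were higher, and with the laboratory controls as covariates the median was 0.01, 2 genes were higher and nrv2 (1.86) was not called. nrv2, a sodium pump subunit, read 9.61, 9.97 and 9.23 on the dKDM2 arrays, against 7.13, 6.80 and 7.52 on the dRING arrays (difference 2.45, SE 0.60, adjusted p = 0.00688 by limma). Tsf2, a transferrin-like protein of the junction, read 9.17, 8.91 and 8.96 on the dKDM2 arrays, against 6.88, 6.93 and 7.34 on the dRING arrays (difference 1.97, SE 0.24, adjusted p = 7.42e-06 by limma). Both genes were separated in all 6 arrays. The higher count was 2 without the first dKDM2, first dRING or second dRING array.

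Of 10 Notch pathway genes, 4 were higher and 1 lower. E(spl)mbeta-HLH, a Notch target that encodes a repressor, read 10.60, 10.45 and 10.82 on the dKDM2 arrays, against 8.43, 8.15 and 8.22 on the dRING arrays (difference 2.36, SE 0.30, adjusted p = 9.97e-06 by limma). numb, an inhibitor of Notch, differed by 1.42, and pen-2, a subunit of the gamma-secretase that cleaves Notch, by -2.07 (adjusted p = 5.82e-05 by limma). The higher count was 2 without the second dKDM2, first dRING or second dRING array. It was 1 with the laboratory controls as covariates, where numb (1.03) was not called. Of 19 genes of the ecdysone response, 3 were higher and 1 lower. br (broad) read 6.34, 6.85 and 6.88 on the dKDM2 arrays, against 4.00, 3.85 and 4.35 on the dRING arrays (difference 2.62, SE 0.35, adjusted p = 1.72e-05 by limma), and usp, a subunit of the ecdysone receptor, differed by 1.39 (adjusted p = 0.00054 by limma). Of 15 genes of insulin and TOR signalling, 3 were higher and 0 lower by limma (4 and 1 at an unadjusted p under 0.05), among them Tsc1, a brake on TOR (difference 1.06, adjusted p = 0.00675 by limma). That higher count was 1 without the second dKDM2 or the first dRING array and 2 without the first dKDM2, the second dRING or the third dRING array, and on the deposited scale usp (0.89) and Tsc1 (0.48) were not called.

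Of 13 genes of the RNA interference machinery, through which the depletions were made, 2 were higher and 1, trsn, was lower. The shares over all genes were 6.77% higher and 6.95% lower. drosha, the nuclease of microRNA maturation, read 10.15, 10.06 and 9.64 on the dKDM2 arrays, against 7.69, 7.63 and 8.95 on the dRING arrays (difference 1.86, SE 0.46, adjusted p = 0.00726 by limma). Ranbp21, an exportin, differed by 1.67 (adjusted p = 0.00481 by limma). Of 24 genes of Imd and Toll signalling 1 was called, Traf6, an adaptor (difference 1.90, adjusted p = 0.00762 by limma). Of 8 JAK/STAT genes, 1 was higher and 1 lower, the higher one being Socs44A, of a family of inhibitors of cytokine signalling (difference 2.11, adjusted p = 0.000234 by limma). None of 11 heat shock genes and none of 8 antimicrobial peptide genes was called by limma, with 1 in each list at an unadjusted p under 0.05. On the deposited scale Ranbp21 (1.28) and Traf6 (1.16) were not called, and drosha (0.27), Socs44A (1.12) and Traf6 (1.97) were not called with the laboratory controls as covariates.

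Markers of cell types were compared last, beside 6.77% higher and 6.95% lower over all genes. The summed linear signal of 26 blood cell markers was 22539 to 28595 on the dKDM2 arrays and 25784 to 33954 on the dRING arrays, with 1 marker called, drpr, an engulfment receptor (difference 2.14, adjusted p = 0.00163 by limma). Of 9 neuronal markers, elav, an RNA-binding protein of neurons, read 8.26, 8.78 and 8.57 on the dKDM2 arrays, against 5.97, 5.67 and 6.57 on the dRING arrays (difference 2.46, SE 0.38, adjusted p = 9.74e-05 by limma). nSyb, Rdl, VGlut and Appl were at the floor on all 6 arrays, and elav averaged 9.01 after depletion of PH. Of 9 germ line markers, 2 were lower, including tej, a piRNA pathway protein (difference -2.88, adjusted p = 6.81e-05 by limma), and vas was at the floor on all 6 arrays. tej was -1.93 and not called with the laboratory controls as covariates. Of 6 muscle markers, sls, a titin-like protein, was called higher close to the floor, at 2.60, 2.38 and 2.27 on the dKDM2 arrays against 2.27 on all 3 dRING arrays (difference 0.15, adjusted p = 0.0427 by limma). sls lost its call with the laboratory controls as covariates (0.07) and with any 1 array other than the third dKDM2 array left out (0.06 to 0.17), and bt was at the floor on all 6 arrays. The summed linear signal of the muscle markers was 30 to 37 on the dKDM2 arrays and 29 to 33 on the dRING arrays. No fat body marker of 6 and no gut marker of 7 was called by limma, with 1 and 2 at an unadjusted p under 0.05. In bulk RNA, fewer cells of a type and less RNA per cell cannot be told apart.

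The called genes differed in length, a property the comparison did not use. Length is the genomic span with introns. The median was 4448 bp for 783 genes called higher, 1675 bp for 811 called lower and 2291 bp for all 11587 with a length. Over genes above the floor on all 6 arrays, the shortest of 4 equal bins (151 to 1483 bp) had 2.58% of genes called higher and 18.4% lower. The longest bin (5813 to 396036 bp) had 15.6% called higher and 4.61% lower. The rank correlation of length with the difference was 0.316 across 7290 genes, which share the same 6 arrays.

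The X chromosome also stood apart in these shares. Of its 1819 tested genes, 10.5% were called higher and 4.34% lower on the dKDM2 arrays, whereas the arms 2L, 2R, 3L and 3R had 5.2% to 6.51% higher and 6.77% to 8.5% lower. Among the longest genes, 20.2% of 351 X-linked genes and 14.5% of 1472 others were called higher. Among the shortest, 9.92% of 252 X-linked genes and 19.7% of 1572 others were called lower. In all 4 bins of length the median difference was higher for X-linked genes than for the others. The part of the laboratory controls in these shares was not tested.

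**Figure D4:**
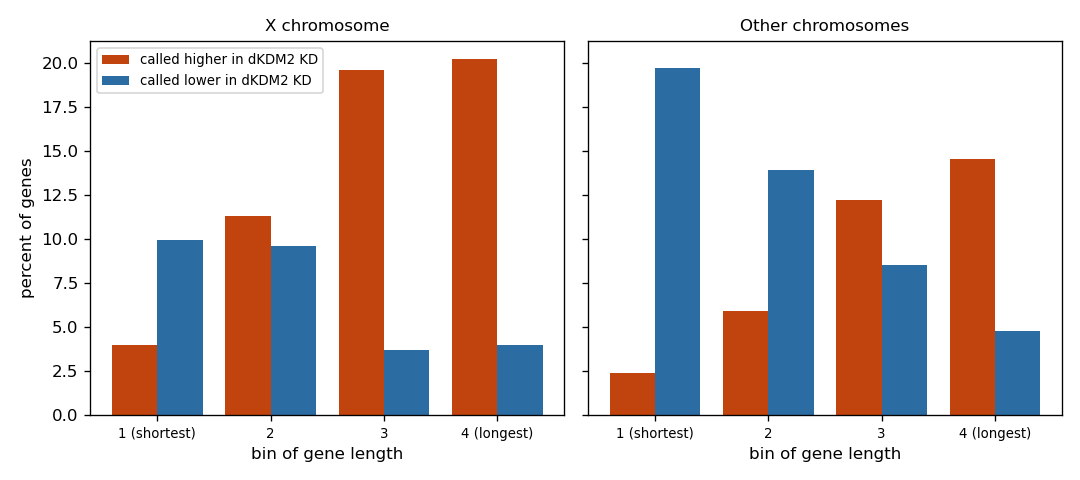
Percent of genes called higher (first bar) and lower (second bar) on the dKDM2 arrays, in 4 equal bins of gene length, for the X chromosome (left) and the other chromosomes (right). The share called higher grows with length in both panels, up to 20.2% on X and 14.5% elsewhere, and the share called lower is 9.92% on X and 19.7% elsewhere in the shortest bin.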

How the data were processed

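Total RNA was hybridized to 29 Affymetrix arrays. The deposited values are log2 signals made by the authors. RMA and GCRMA are named, per the submitters' processing notes, without a role or version. The lowest value, 2.27, held 42.0% of all values, which understates differences down to it. There were 18952 probe sets, of which 183 were controls, 402 named several genes, 4720 had no gene named here and 13647 named 1 gene. Of these, 13544 took their current name through the gene number and 103 had only an older symbol. The probe set with the highest mean stood for each of 11982 genes, and 305 at the floor on every array were dropped.

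Array medians ran from 2.271 to 2.473, apart by more than 0.1, and arrays were quantile normalized. The 6 group means were estimated in 1 limma model of the 29 arrays (version 3.58.1, R 4.3.3), with moderated variances that follow intensity and two-sided tests. It was tested on simulated data. The number of arrays limits the precision.

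The comparison, the gene lists and the named genes were chosen with earlier results of these data known. Named are the target genes, the 12 largest called differences each way with groups apart, up to 3 called members per list, genes called against Mock in opposite directions, the 5 most changed alike each way and other Polycomb or trithorax genes. From these, mainly genes whose call held with single arrays left out are printed; this preference was chosen with the values in view. Promoter motifs were not used here.

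Alternatives were other scalings, filters on dim genes, the mean over probe sets, fits on 6 or 18 arrays with and without a replicate block, no intensity trend, the laboratory controls as covariates, a test against a 2-fold difference and each array left out in turn. Equal array medians and the scalings restricted to genes above the floor were added after seeing the data.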

Additional observations from a re-analysis of the deposited data

Results flagged for a closer look

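Genes for which the depletions moved to opposite sides of Mock, each with a call, were noted. A call between the depletions adds little for them, since that difference is made of the 2 called changes. The difference, dKDM2 minus dRING, was 4.35 for Ptp4E, 3.36 for PpV, 2.40 for plum, -1.91 for eas and -2.14 for mnd. The poly-A spikes and the hybridization controls were noted because they lie outside the gene measurements and were high on the dKDM2 arrays, at means of 8.27 and 12.18, against 4.48 and 10.22 on the dRING arrays and 4.93 and 10.52 on the Mock arrays.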

How the results depend on the processing

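The counts of genes called higher and lower on the dKDM2 arrays, 790 and 812, were 0 and 0 by limma on the 6 arrays alone with the replicate number as a block, where 2142 genes had an unadjusted p under 0.05. Deviations of same-numbered dKDM2 and dRING arrays correlated at 0.064, -0.196 and -0.086 over 5490 genes, so the numbers were not taken to pair the arrays. The counts were 440 and 375 on the 6 arrays without a block, 1323 and 1354 on 18 arrays with the block, 463 and 474 with the laboratory controls as covariates, and 24 and 42 when tested against a 2-fold difference. Across scalings, higher genes numbered 7018 with median centring, 2555 with median centring above the floor, 440 with equal array medians and 454 on the deposited scale above the floor, and lower genes numbered 1346 as deposited, 3530 with equal medians and 1511 as deposited above the floor. With single arrays left out, higher genes ranged from 479 to 1204 and lower genes from 488 to 945. Of the 1602 called genes, 0 were called by limma under every alternative other than the 3 added after seeing the data, 52 under all but the block on 6 arrays, and 211 when the test against a 2-fold difference was also set aside. Of 68 called genes named in the text, 63 kept their call with each array left out in turn. That share was largely set by the choice of genes, since genes whose call held were preferred for printing. Over all genes, 973 to 1478 of the 1602 calls were kept in the same direction, depending on the array left out. Of the 68 named genes, 18 lost their call on 6 arrays without a block (cad and trsn among them) and 8 on the deposited scale. With the laboratory controls as covariates 29 of the 68 lost it, and M1BP also lost its call and turned to 0.07. No other called gene of these changed sign under any alternative run. The cause of these changes was not tested, apart from fewer arrays or genes where an alternative has them. Signals near the floor limit what can be said of dim genes.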
